A study of Mus musculus with 12 samples.

Results

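The genes described here are 9 that mark neutrophils, the short-lived granulocytes of blood. They were chosen by symbol, 6 as genes of mature cells (S100a8, S100a9, Retnlg, Csf3r, Il1r2 and Ly6g) and 3 as granule genes of their precursors (Ngp, Camp and Ltf). Of the 9, 8 had a row among the 23238 gene symbols of the count tables, and Ly6g was not analysed here. The series holds RNA-seq of mouse lung tissue from 12 samples, 3 that were not irradiated and 3 each from 8, 11 and 14 days after irradiation, those being taken from irradiated areas only. The sources used here do not give strain, genotype, age, sex, radiation dose or the region sampled in the controls. The replicates are numbered but not said to be separate animals, so p-values reflect only how much these samples vary, and that variation may be technical.

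Neutrophils form in bone marrow, and their granules are filled in sequence. Early precursors make the proteases of the primary granules, later precursors make the proteins of the specific granules, and mature cells mostly shut these genes off and express receptors and cytosolic defence proteins instead. Granule transcripts in a tissue are therefore commonly read as a sign of immature cells, and S100a8, S100a9 and Retnlg as a sign of mature ones. Several of the genes have other sources in lung: S100a8, S100a9, Csf3r and Il1r2 are also transcribed in monocytes or macrophages, and Ltf in glands and secretory epithelium of the airways.

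The libraries held 19624554 to 27765751 counts. Levels are given as CPM, the count scaled to the library total after TMM normalization. Differences were tested with edgeR's quasi-likelihood test over 16484 genes, and a gene was called where its p, adjusted by Benjamini and Hochberg's method, was below 0.05. In these bulk samples a change in the number of cells of a type and a change in RNA per cell cannot be told apart. Markers of lung tissue (Sftpc, Ager, Cldn18, Pecam1 and Scgb1a1) were present in every group, with summed levels of 37600 to 53300 CPM without irradiation and 17600 to 20100 CPM on day 14. A pair of libraries touches the results below. The 8 d replicate 2 held the highest S100a8 and S100a9 of all 12 libraries, and unirradiated replicate 3 held the highest S100a8, S100a9, Retnlg, Csf3r and Ltf of its group.

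Of the 8 genes, 6 passed the expression filter, and Csf3r and Il1r2 were the genes called higher at every time. On day 8, 3 of the 6 rose (S100a9, Csf3r and Il1r2) against 13% of all genes tested called higher. On day 11, 4 rose (S100a8, Csf3r, Il1r2 and Ltf) against 19.4%, and by day 14 the calls were 3 (Csf3r, Il1r2 and Ltf) against 20.0%. None was called lower than in unirradiated lung, where the share of all genes called lower was 10.6%, 17.8% and 18.9%. From 8 d to 14 d S100a9 fell, against 7.29% of all genes called lower, and none of the 6 rose, against 8.1% called higher. None was called from 8 d to 11 d, where 1.75% of all genes were called higher and 0.394% lower, or from 11 d to 14 d, where 0.813% were called higher and 0.983% lower. Without unirradiated replicate 3 all 6 were called higher on day 8 and all 6 on day 11, and so were Bpifa1, Bpifb1 and Reg3g, markers of airway secretory epithelium that were not called with it. Without unirradiated replicate 1 or 2 there were 2 at each time, Csf3r and Il1r2.

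**Figure D1:**
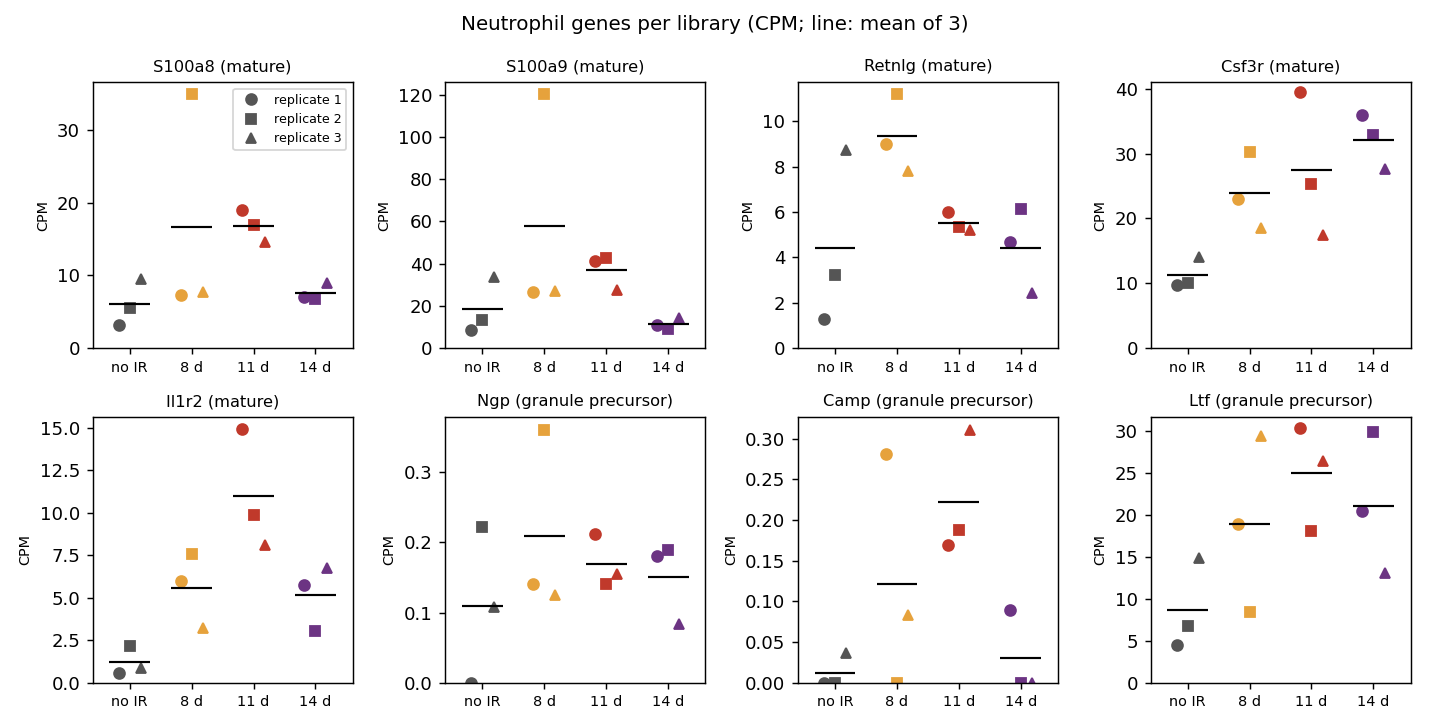
Level of each of the 8 genes in CPM (y axis, linear from 0, own scale per panel) in the 4 groups (x axis). Each point is 1 library, its shape the replicate number, and the line is the mean of 3. S100a8 and S100a9 each have 1 high library on day 8, Csf3r and Il1r2 lie above all unirradiated libraries at every time, and Ngp and Camp stay below 0.361 CPM in every library.

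S100a8 and S100a9 encode the subunits of calprotectin, a calcium- and metal-binding complex that fills the cytosol of neutrophils. The genes lie on mm10 chromosome 3, S100a8 at 90668978 to 90670035 on the plus strand and S100a9 at 90692632 to 90695721 on the minus strand, 22596 bases apart. S100a8 stood at 3.2, 5.50 and 9.54 CPM without irradiation, at 7.36, 35.0 and 7.71 CPM on day 8, at 19.0, 16.9 and 14.6 CPM on day 11 and at 7.02, 6.75 and 8.89 CPM on day 14, in replicate order. All 3 libraries on day 11 lay above all 3 controls, whereas on day 8 only replicate 2 did, and on day 14 none did. On day 11 S100a8 was higher by a log2 change of 1.47 (SE 0.51, adjusted p = 0.034). Its log2 change was 1.45 (SE 0.51, adjusted p = 0.051) on day 8 and 0.31 (SE 0.51, adjusted p = 0.67) on day 14. Without 8 d replicate 2 the 8 d change was 0.31 (adjusted p = 0.55), and it was called without unirradiated replicate 3 (adjusted p = 0.029) or 8 d replicate 1 or 3 (0.019 and 0.022). It was also called with scaling by library size alone (0.041), with no expression filter (0.032) and with a minimum of 10 counts (0.049). The call on day 11 was lost in 5 of the 12 fits that left out 1 library, at adjusted p = 0.13 without unirradiated replicate 1, 0.098 without replicate 2, and 0.093, 0.069 and 0.052 without 11 d replicates 1, 2 and 3. DESeq2 gave adjusted p = 0.052 for it.

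S100a9 had the same high library and fell between 8 d and 14 d. It stood at 8.51, 13.5 and 33.8 CPM without irradiation, at 26.4, 120 and 26.8 CPM on day 8, at 41.3, 42.6 and 27.4 CPM on day 11 and at 11.0, 8.98 and 14.3 CPM on day 14. Every 14 d library lay below every 8 d and every 11 d library, and the 14 d and unirradiated libraries overlapped. From 8 d to 14 d S100a9 fell by 2.34 on the log2 scale (SE 0.57, adjusted p = 0.013), a 5.06-fold difference. Without 8 d replicate 2 that change was -1.22 (adjusted p = 0.058), and without 14 d replicate 1 it was -2.31 (adjusted p = 0.057). Against unirradiated lung the log2 change was 1.63 on day 8 (SE 0.55, adjusted p = 0.046), 0.99 on day 11 (SE 0.55, adjusted p = 0.17) and -0.71 on day 14 (SE 0.56, adjusted p = 0.35). The call on day 8 rested on replicate 2: without it the change was 0.51 (adjusted p = 0.41), and it was called in only 4 of the 12 fits that left out 1 library. It was not called without unirradiated replicate 1 or 2 (adjusted p = 0.17 and 0.15), without any 1 of the 11 d libraries (0.056, 0.06 and 0.055) or without 14 d replicate 1 or 2 (0.059 and 0.053), nor by DESeq2 (adjusted p = 0.065), limma-voom (0.059) or with a replicate block (0.079). The change on day 11 was called without unirradiated replicate 3 (1.75, adjusted p = 0.031) or 8 d replicate 2 (0.99, adjusted p = 0.042). From 11 d to 14 d the changes of S100a8 (-1.16, SE 0.50, adjusted p = 0.27) and S100a9 (-1.70, SE 0.56, adjusted p = 0.15) did not pass, and both did without 8 d replicate 2 (adjusted p = 0.043 and 0.03), which enters the common estimate of the spread, or with only these groups in the fit (0.015 and 0.0082).

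The 250 bases before the RefSeq start sites of this neighbouring pair are shown because both genes were highest in the same 8 d library. RefSeq starts can differ from the gene starts given above. The stretches are in GRCm38.p6, chr3:90668821-90669070 on the plus strand for S100a8 and chr3:90695722-90695971 on the minus strand for S100a9, read 5′ to 3′. Capitals mark matches to TTNNGNAA, a motif of the C/EBP factors of granulocyte differentiation, and to GAGGAA, a core bound by the myeloid factor PU.1, both searched on both strands.
S100a8: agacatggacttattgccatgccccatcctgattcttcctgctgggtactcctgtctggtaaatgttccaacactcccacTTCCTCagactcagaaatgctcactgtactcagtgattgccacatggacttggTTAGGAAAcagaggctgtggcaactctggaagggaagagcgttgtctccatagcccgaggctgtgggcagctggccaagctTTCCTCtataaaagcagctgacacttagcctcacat
S100a9: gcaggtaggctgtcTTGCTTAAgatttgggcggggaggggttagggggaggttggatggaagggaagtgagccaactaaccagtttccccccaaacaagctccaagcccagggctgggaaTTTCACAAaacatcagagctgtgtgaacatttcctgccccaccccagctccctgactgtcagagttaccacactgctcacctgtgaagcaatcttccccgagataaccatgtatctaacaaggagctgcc
S100a8 holds 1 match to TTNNGNAA and 2 to GAGGAA, and S100a9 holds 2 and 0. In the full windows of 300 bases, which run on past the start site, 5 of the 8 genes hold TTNNGNAA, as do 40.7% of the 32851 promoter windows in the table. GAGGAA is in 3 of the 8 and in 28.3% of all windows. A match is a description of the letters and not a site of binding.

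Retnlg, which encodes a resistin-like protein of mature neutrophils (chromosome 16, 48872621 to 48874496, plus strand), did not pass edgeR's test at any time. It stood at 1.28, 3.21 and 8.75 CPM without irradiation, at 9.0, 11.2 and 7.79 CPM on day 8, at 6.0, 5.34 and 5.18 CPM on day 11 and at 4.68, 6.15 and 2.42 CPM on day 14. Unirradiated replicate 3 lay within the 8 d range and above every library of 11 d and 14 d, while replicate 1 was the lowest of the 12. The log2 changes were 1.08 on day 8 (SE 0.47, adjusted p = 0.12), 0.32 on day 11 (SE 0.48, adjusted p = 0.63) and 0.00 on day 14 (SE 0.48, 95% interval -1.03 to 1.03). By limma-voom it was called on day 8 (1.46, adjusted p = 0.034). Without unirradiated replicate 3 it was called on day 8 with a change of 2.04 (adjusted p = 0.0026) and on day 11 with 1.29 (adjusted p = 0.023). All 8 d libraries lay above all 11 d and 14 d libraries, but neither difference passed the test (adjusted p = 0.47 and 0.15), the second passing without unirradiated replicate 3 (adjusted p = 0.042).

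Both receptor genes rose at every time. Csf3r encodes the receptor for G-CSF, the growth factor that drives neutrophil production (chromosome 4, 126024550 to 126044440, plus strand). It stood at 9.72, 10 and 14.0 CPM without irradiation, at 23, 30.3 and 18.6 CPM on day 8, at 39.5, 25.3 and 17.4 CPM on day 11 and at 36.0, 32.9 and 27.7 CPM on day 14. Every irradiated library exceeded every control, and the irradiated groups overlapped one another. The log2 change was 1.09 on day 8 (SE 0.26, adjusted p = 0.0084), 1.29 on day 11 (SE 0.26, adjusted p = 0.0017) and 1.52 on day 14 (SE 0.27, adjusted p = 0.00038). The call held in 12 of 12 fits without 1 library at each time. The changes between times ran from 0.20 to 0.43 and did not pass (adjusted p from 0.31 to 0.76).

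Il1r2 encodes the decoy receptor that binds interleukin 1 without signalling (chromosome 1, 40074079 to 40125231, plus strand), and its change on day 11 was the largest of the 6 genes tested. It stood at 0.565, 2.18 and 0.867 CPM without irradiation, at 6.0, 7.57 and 3.25 CPM on day 8, at 14.9, 9.89 and 8.09 CPM on day 11 and at 5.76, 3.06 and 6.76 CPM on day 14. All irradiated libraries lay above all controls, and the 11 d libraries lay above all those of 8 d and 14 d. The log2 change was 2.21 on day 8 (SE 0.46, adjusted p = 0.0032), 3.18 on day 11 (SE 0.46, adjusted p = 0.00011) and 2.10 on day 14 (SE 0.46, adjusted p = 0.0022), which is 4.63-, 9.09- and 4.29-fold, and each call held in 12 of 12 fits without 1 library. The differences of 11 d from 8 d (0.97, SE 0.41, adjusted p = 0.26) and of 14 d from 11 d (-1.08, SE 0.41, adjusted p = 0.20) did not pass. The unirradiated group held only 98 counts of Il1r2 in all, an exact 95% Poisson interval of 0.978 to 1.47 CPM around 1.21 CPM. That interval covers counting error only, not the spread between libraries. All 3 unirradiated libraries, at 0.565, 2.18 and 0.867 CPM, lay outside it.

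**Figure D2:**
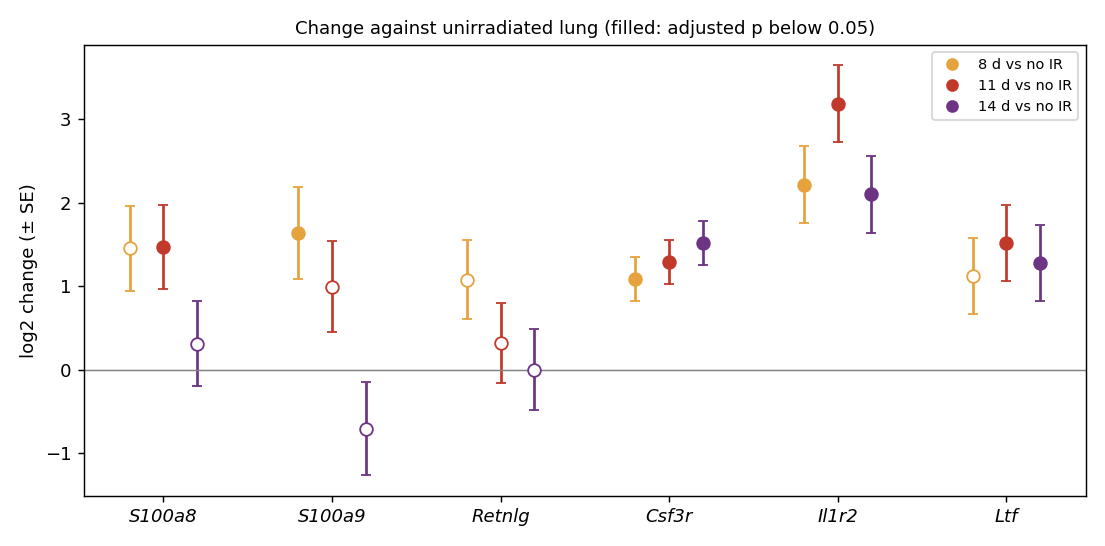
Log2 change against unirradiated lung (y axis) of the 6 genes that passed the expression filter (x axis) at 8, 11 and 14 d. Points are edgeR estimates, bars are ± 1 SE, and filled points have an adjusted p below 0.05. Csf3r and Il1r2 are filled at every time, while S100a8, S100a9 and Retnlg are open on day 14, between -0.71 and 0.31.

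The 3 granule genes of the precursors lie within 1195389 bases of chromosome 9 but were present at very different levels. Ngp encodes neutrophilic granule protein (110419747 to 110423012, plus strand), and Camp encodes the antimicrobial cathelicidin (109847379 to 109849617, minus strand). Ngp had 0, 6 and 3 counts without irradiation, 3, 8 and 3 on day 8, 5, 3 and 3 on day 11 and 4, 5 and 2 on day 14. Camp had 0, 0 and 1, then 6, 0 and 2, then 4, 4 and 6, then 2, 0 and 0. Neither passed the expression filter, and no group was free of either gene. Summed over the 3 libraries of a group, Ngp was at 0.111 CPM without irradiation (exact 95% Poisson interval 0.0506 to 0.210), 0.207 CPM on day 8 (0.113 to 0.348), 0.171 CPM on day 11 (0.0854 to 0.306) and 0.151 CPM on day 14 (0.0755 to 0.271), intervals that overlap. Camp was at 0.0123 CPM (0.0003 to 0.0685), 0.118 CPM (0.0511 to 0.233), 0.218 CPM (0.119 to 0.365) and 0.0275 CPM (0.0033 to 0.0994). The Camp interval on day 11 lay above those without irradiation and on day 14. These intervals cover counting error only. With no filter Camp was called higher on day 11 (adjusted p = 0.047), on 14 counts against 1, whereas DESeq2 gave adjusted p = 0.059, and Ngp was not called against controls at any time by either.

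Ltf, which encodes the iron-binding granule protein lactoferrin (111019271 to 111042767, plus strand), supplied 95.9% to 100% of the summed level of the 3 granule genes in every library. It stood at 4.45, 6.75 and 14.9 CPM without irradiation, at 18.9, 8.47 and 29.4 CPM on day 8, at 30.3, 18.1 and 26.3 CPM on day 11 and at 20.4, 29.8 and 13 CPM on day 14. Only on day 11 did all 3 libraries lie above the controls. The log2 change was 1.12 on day 8 (SE 0.46, adjusted p = 0.094), 1.52 on day 11 (SE 0.46, adjusted p = 0.018) and 1.28 on day 14 (SE 0.46, adjusted p = 0.039). The change on day 8 was called without unirradiated replicate 3 (adjusted p = 0.017) or 8 d replicate 2 (0.023). The call on day 11 was lost without unirradiated replicate 1 or 2 (adjusted p = 0.078 and 0.073) or 11 d replicate 1 (0.067). That on day 14 was lost without unirradiated replicate 1 or 2 (0.15 and 0.13), 11 d replicate 3 (0.05) or 14 d replicate 1 or 2 (0.074 and 0.15), and by DESeq2 (0.063).

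Within some groups, certain airway secretory transcripts were highest in the library with the most Ltf, and others were not. The 2 given first were chosen after their values were seen. Bpifb1, a secreted protein of airway epithelium and glands, stood at 0.339, 2.32 and 90.1 CPM without irradiation, at 4.22, 2.66 and 96.0 CPM on day 8, at 18.9, 15.9 and 20.1 CPM on day 11 and at 6.66, 7.73 and 2.88 CPM on day 14. Muc5b, a gel-forming airway mucin, stood at 3.39, 10.4 and 70.1 CPM, then 16.4, 4.23 and 89.4 CPM, then 24.4, 41.4 and 21.5 CPM, then 17.9, 24.1 and 5.26 CPM. Within the unirradiated, 8 d and 14 d groups the 3 libraries had the same order in Ltf and Muc5b, and on day 11 they did not. Between groups the levels did not run together. Bpifb1 at 90.1 CPM went with Ltf at 14.9 CPM in unirradiated replicate 3, and 96.0 with 29.4 in 8 d replicate 3. In 11 d replicate 1, the highest in Ltf, 18.9 went with 30.3. Scgb1a1, the club cell secretory protein and most of the summed level of the list, had another order: it stood at 13300, 24700 and 18600 CPM without irradiation, at 9500, 9750 and 9060 CPM on day 8, at 5070, 9100 and 8540 CPM on day 11 and at 4110, 6490 and 4350 CPM on day 14. Its highest library was replicate 2 in every group, which on day 8 was the lowest in Ltf. Scgb3a2, another club cell product, was highest in replicate 3 in every group, at 702, 645, 422 and 301 CPM, and on day 14 that library was the lowest in Ltf. Of 6 airway secretory markers none rose at any time, 1 fell on day 8, 1 on day 11 and 2 on day 14. Without unirradiated replicate 3, Bpifa1, Bpifb1 and Reg3g were higher, Bpifb1 by a log2 change of 4.68 on day 8 (adjusted p = 0.028) and 3.77 on day 11 (adjusted p = 0.047). That fit kept 8 d replicate 3, where Bpifb1 stood at 96.0 CPM beside 4.22 and 2.66 CPM in replicates 1 and 2. Bpifa1, at 144 CPM, and Reg3g, at 58.2 CPM, were also highest on day 8 in that library. The summed level of the 6 ran from 13600 to 25300 CPM without irradiation, 9860 to 10200 on day 8, 5440 to 9540 on day 11 and 4400 to 6800 on day 14, with no marker at 0 in a whole group. The part of airway tissue in the Ltf values, and in those of the other genes that were highest in unirradiated replicate 3, was not tested.

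**Figure D3:**
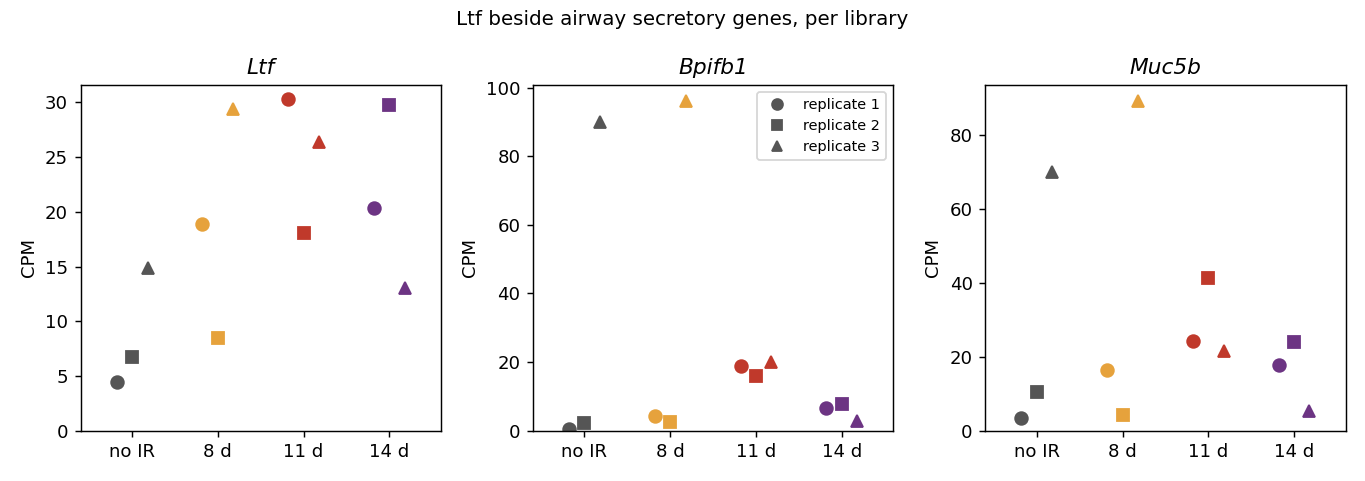
Level of Ltf and of the airway secretory genes Bpifb1 and Muc5b in CPM (y axis, linear from 0, own scale per panel) in the 4 groups (x axis), each point 1 library with its shape the replicate number. Replicate 3 is the highest for all 3 genes without irradiation and on day 8, whereas on day 14 replicate 2 is the highest, with Bpifb1 at only 7.73 CPM.

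The stretches before the start sites of Ngp and Ltf are shown because these genes share a chromosome segment and a place in granulopoiesis but differed widely in level. They are at chr9:110419558-110419807 and chr9:111019042-111019291 in GRCm38.p6, both on the plus strand, with capitals as above.
Ngp: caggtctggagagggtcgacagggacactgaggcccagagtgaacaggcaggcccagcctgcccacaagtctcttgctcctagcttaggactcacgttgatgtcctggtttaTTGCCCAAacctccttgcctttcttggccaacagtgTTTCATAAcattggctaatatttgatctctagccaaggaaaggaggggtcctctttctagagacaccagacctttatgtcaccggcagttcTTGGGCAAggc
Ltf: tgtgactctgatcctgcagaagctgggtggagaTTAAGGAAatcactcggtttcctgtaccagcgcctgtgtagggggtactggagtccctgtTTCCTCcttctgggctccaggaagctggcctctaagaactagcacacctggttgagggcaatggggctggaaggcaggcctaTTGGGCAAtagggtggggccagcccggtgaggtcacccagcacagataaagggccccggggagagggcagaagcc
Ngp holds 3 matches to TTNNGNAA and none to GAGGAA, and Ltf holds 2 and 1. These counts of letters say nothing of binding by either factor.

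Per kilobase of exon, the scale on which genes can be compared, S100a9 was the most abundant of the 8 in every group. Without irradiation the mean levels were 35.7 ± 25.7 CPM per kb for S100a9 (SD, n = 3), 8.76 ± 4.62 for S100a8, 7.44 ± 6.53 for Retnlg, 3.12 ± 0.658 for Csf3r, 2.52 ± 1.59 for Ltf, 0.631 ± 0.449 for Il1r2, 0.0900 ± 0.0906 for Ngp and 0.0159 ± 0.0275 for Camp. The neighbours S100a8 and Retnlg, and Csf3r and Ltf, lay within their spread of each other. On day 14 S100a9 stood at 21.9 ± 5.16 CPM per kb, S100a8 at 10.9 ± 1.68, Csf3r at 8.92 ± 1.16, Retnlg at 7.45 ± 3.17, Ltf at 6.11 ± 2.44 and Il1r2 at 2.72 ± 1.0, so Csf3r then had a higher mean than Retnlg, within their spread. Ngp at 0.123 ± 0.0477 and Camp at 0.0396 ± 0.0685 CPM per kb remained below the other genes.

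The ratio of mature to granule precursor genes did not separate the groups. It was taken per library as the summed CPM of the 5 measured mature genes over that of the 3 granule genes, and is a description with no test. Its log2 value was 2.39, 2.31 and 2.15 without irradiation, 1.89, 4.53 and 1.12 on day 8, 1.98, 2.44 and 1.44 on day 11 and 1.64, 0.95 and 2.20 on day 14. The controls were close together, the 8 d libraries ranged above and below them, and 2 of the 3 libraries on day 11 and all but 1 on day 14 lay below the lowest control. The means were 2.28 ± 0.119 (SD, n = 3), 2.51 ± 1.79, 1.95 ± 0.502 and 1.60 ± 0.627. Without 8 d replicate 2, which had both the highest mature sum (204 CPM) and the lowest granule sum of the irradiated libraries (8.83 CPM), the 8 d minus control difference was -0.78 in place of 0.23. Ltf makes up nearly all of the denominator, and the part of airway tissue in this ratio was not tested. Ngp and Camp alone gave 10 counts in the controls, 22 on day 8, 25 on day 11 and 13 on day 14, too few for a ratio per library.

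S100a9 and S100a8 shifted relative to each other across the irradiated groups. The CPM ratio of S100a9 to S100a8, computed after the values had been seen, was 2.66, 2.46 and 3.55 without irradiation, 3.59, 3.44 and 3.48 on day 8, 2.18, 2.52 and 1.88 on day 11 and 1.57, 1.33 and 1.61 on day 14. The 8 d, 11 d and 14 d ranges did not overlap, and the 14 d ratios were below all others. The 8 d replicate 2, which had the highest level of both genes, had a ratio like the other 8 d libraries. Library scaling cancels in this ratio, which was given no test.

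**Figure D4:**
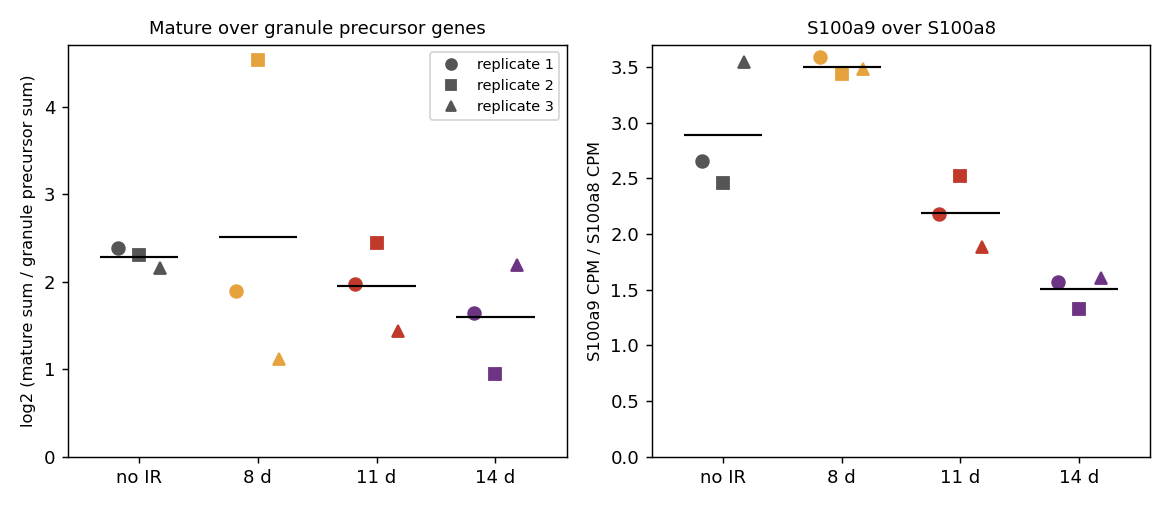
Left, log2 of the summed CPM of 5 mature genes over that of 3 granule precursor genes. Right, the ratio of S100a9 to S100a8 CPM. Each point is 1 library, its shape the replicate number, lines are means of 3, and groups are on the x axis. The left ratio spans 1.12 to 4.53 on day 8, and the right ratio falls from a mean of 3.50 on day 8 to 1.5 on day 14.

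Among the listed granule genes, more of those of later precursors than of early ones passed the expression filter. Ngp and Camp, given above, did not pass it. None of 6 primary granule and promyelocyte genes (Mpo, Elane, Prtn3, Ctsg, Ms4a3 and Fcnb) passed the expression filter. Their summed level was 0.0377 to 0.108 CPM without irradiation, 0.187 to 0.333 on day 8, 0.141 to 0.467 on day 11 and 0.453 to 0.835 on day 14, and Mpo, Elane, Ms4a3 and Fcnb were at 0 in all unirradiated libraries. Of 10 later granule genes 9 were tested, of which 7 rose and 1 fell on day 8, 6 rose and 1 fell on day 11, and 5 rose and 1 fell on day 14, with median log2 changes of 1.57, 1.52 and 1.96 beside 0.01, -0.01 and 0.01 over all genes. Mmp8, the neutrophil collagenase, rose from 2.29 ± 0.6 CPM (SD, n = 3) to 11.5 ± 4.02 on day 8 and 33.5 ± 11.1 on day 14, a log2 change of 3.86 on day 14 (SE 0.36, adjusted p = 1.5e-06). Mmp25, a membrane-bound metalloprotease, rose by 2.20 on day 8 (SE 0.32, adjusted p = 0.00025) and 3.52 on day 14 (SE 0.31, adjusted p = 1.1e-06). Cd177, a surface glycoprotein of neutrophils, rose by 1.57 on day 8 (SE 0.42, adjusted p = 0.015) and 2.42 on day 14 (SE 0.42, adjusted p = 0.00036). Mmp9, the gelatinase, rose by 1.43 on day 8 (SE 0.36, adjusted p = 0.0097) and then stood at -0.14 on day 14 (SE 0.37, adjusted p = 0.80), and it fell by 1.56 from 8 d to 14 d (SE 0.36, adjusted p = 0.0092). Lcn2, which epithelium also makes, rose at every time, and the gene that fell was Chil3, which is also a product of alveolar macrophages.

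Other genes of mature neutrophils were more often called higher than lower on days 8 and 11, and on day 14 the counts were near the shares of all genes. Of 15 listed genes 12 were tested, with 6 higher and 2 lower on day 8, 7 and 2 on day 11, and 2 and 3 on day 14, and median log2 changes of 0.88, 1.28 and -0.24. From 8 d to 14 d, 5 fell and none rose, beside 7.29% of all genes called lower and 8.1% called higher. Without 8 d replicate 2 only 3 were higher on day 8, and from 8 d to 14 d 4 fell and 1 rose. Trem3, a myeloid activating receptor, rose by 1.88 on day 8 (SE 0.54, adjusted p = 0.021) and fell by 2.49 from 8 d to 14 d (SE 0.58, adjusted p = 0.0099). Asprv1, an aspartic protease gene of mature neutrophils, rose by 1.46 on day 8 (SE 0.43, adjusted p = 0.023) and fell by 1.67 from 8 d to 14 d (SE 0.44, adjusted p = 0.019). Wfdc21, a secreted inhibitor-like protein, rose by 1.23 on day 8 (SE 0.30, adjusted p = 0.0086) and fell by 1.28 from 8 d to 14 d (SE 0.30, adjusted p = 0.011). Stfa2l1, a stefin with near-identical copies whose count is uncertain, rose by 2.11 on day 8 (SE 0.66, adjusted p = 0.031) and fell by 4.01 from 8 d to 14 d (SE 0.84, adjusted p = 0.005). These changes rest on few counts, summed over the unirradiated, 8 d and 14 d libraries in turn. They were 18, 66 and 4 for Stfa2l1, 29, 89 and 17 for Trem3, and 35, 80 and 27 for Asprv1. Without 8 d replicate 2 the 8 d calls of Trem3 (adjusted p = 0.095), Asprv1 (0.088) and Stfa2l1 (0.097) were lost, as was the fall of Asprv1 (0.063). Clec4e and Clec4d, lectin receptors that macrophages share, rose at every time, Clec4e from 2.55 ± 0.354 to 83.9 ± 29.6 CPM on day 11. Cxcr2, the chemokine receptor of mature neutrophils, had log2 changes of 0.15, -0.03 and -0.28 (SE 0.34 each, adjusted p from 0.56 to 0.96), and the formyl peptide receptor gene Fpr1 fell by 1.68 on day 8 (SE 0.21, adjusted p = 7e-05) and fell by 1.84 on day 14 (SE 0.21, adjusted p = 9e-06). Fpr2 fell by 1.06 on day 8 (SE 0.29, adjusted p = 0.017) and by 1.10 on day 14 (SE 0.29, adjusted p = 0.0078). G0s2 fell by 1.12 on day 11 (SE 0.30, adjusted p = 0.0091) and by 1.58 on day 14 (SE 0.30, adjusted p = 0.00076).

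**Figure D5:**
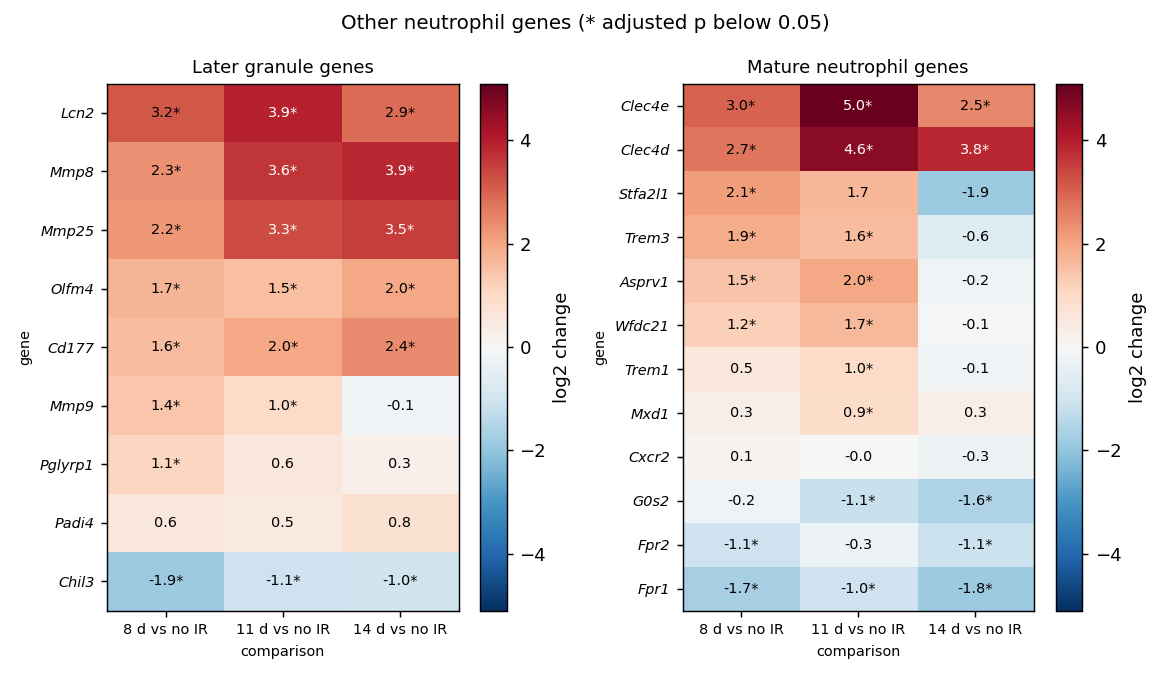
Log2 change against unirradiated lung (colour and printed value) of the tested later granule genes (left) and other mature neutrophil genes (right), genes in rows and times in columns, with an asterisk for an adjusted p below 0.05. Mmp8, Mmp25 and Cd177 carry an asterisk at all 3 times, while Trem3, Asprv1 and Wfdc21 carry one at 8 and 11 d only.

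Ligands and regulators of the pathway moved as follows. The shares of all genes called higher on days 8, 11 and 14 were 13%, 19.4% and 20.0%, and those called lower were 10.6%, 17.8% and 18.9%. Beside these shares, list counts of 1 to 3 among 3 or 5 genes are not read as a result. Of 9 genes for growth factors and recruitment 7 were tested, with 4 higher and 1 lower on day 8, 4 and 1 on day 11, and 3 and 1 on day 14. The neutrophil chemokine gene Cxcl1 rose by 4.03 on day 8 (SE 0.45, adjusted p = 3.3e-05) and fell by 1.94 from 8 d to 14 d (SE 0.39, adjusted p = 0.0036). Cxcl12, the marrow and tissue retention chemokine, was the gene that went down, and it fell by 0.77 on day 8 (SE 0.16, adjusted p = 0.0028) and fell by 1.32 on day 14 (SE 0.16, adjusted p = 1.5e-05). Csf3, which encodes the ligand of Csf3r, did not pass the expression filter, with at most 0.187 CPM in a library. Of 6 granulocyte transcription factors 5 were tested, with 2, 3 and 3 higher and none lower. Spi1, which encodes PU.1, rose by 1.12 on day 8 (SE 0.18, adjusted p = 0.00058) and 1.81 on day 14 (SE 0.18, adjusted p = 3.5e-06), and Cebpe, the factor of granule gene expression, did not pass the filter. Of 5 genes for interleukin 1 and its receptors 2, 3 and 2 rose and none fell. Il1b, the ligand that Il1r2 captures, rose from 3.97 ± 3.82 to 34.1 ± 18.8 CPM on day 8 (log2 change 3.09, SE 0.54, adjusted p = 0.00091) and fell by 1.86 from 8 d to 14 d (SE 0.51, adjusted p = 0.023), a fall that was lost without 8 d replicate 2 (-1.31, adjusted p = 0.084). Of the 3 genes for calprotectin receptors Tlr4 rose on days 11 and 14, Ager fell on days 11 and 14, and Bsg was not called at any time.

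Monocyte markers moved over the same samples. Of all genes tested, 13%, 19.4% and 20.0% were called higher on days 8, 11 and 14, and 10.6%, 17.8% and 18.9% lower. Of 7 classical monocyte markers 6 rose and 1, Chil3, fell at each time. Their summed level was 571 to 751 CPM without irradiation, 368 to 512 on day 8, 533 to 814 on day 11 and 631 to 739 on day 14. Ccr2, the defining chemokine receptor, rose by 2.57 on day 8 (SE 0.28, adjusted p = 2.6e-05) and 3.65 on day 14 (SE 0.29, adjusted p = 5.2e-07), and no marker was at 0 in a whole group. Chil3 made up most of the sum in unirradiated lung, at 611 ± 113 CPM (SD, n = 3), and stood at 170 ± 23 CPM on day 8. The list shares Chil3 with the later granule list. Of 7 patrolling monocyte markers 5 rose and 1 fell on day 8, 3 rose and 1 fell on day 11, and 2 rose and 3 fell on day 14. Beside the shares of all genes, the day 14 counts of this list are not read as a result. The summed level of the 7 was 1170 to 1490 CPM without irradiation, mostly Ace, and 391 to 499 CPM on day 14. Without unirradiated replicate 3 1 was called lower on day 14, Nr4a1 (-0.32, adjusted p = 0.41) and Cd300e (-0.96, adjusted p = 0.06) losing the call. The part of monocytes and macrophages in Csf3r, Il1r2, S100a8 and S100a9 was not tested.

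Red cell transcripts were lower on day 14. The 5 red cell genes summed to 8580 to 16400 CPM without irradiation, 10700 to 15900 on day 8, 6380 to 12000 on day 11 and 2300 to 4780 on day 14, and all 5 fell on day 14. Of 5 platelet genes 1 rose and 2 fell on day 14, and their sum was 23.1 to 28.9 CPM without irradiation and 18 to 29.6 CPM on day 14. Without unirradiated replicate 3 the platelet counts were 0 and 1. Of 5 eosinophil markers 4 were tested and 1 rose and 1 fell at each time, with sums of 28.3 to 31.7 CPM without irradiation and 17.7 to 19.8 CPM on day 14, and Epx and Prg2 were at 0 in the unirradiated group. The eosinophil count of rises was 2 on days 8 and 14 without unirradiated replicate 3, and 0 on day 8 without 8 d replicate 2. Over all genes 20.0% were called higher and 18.9% lower on day 14, so counts of 1 or 2 among 4 or 5 genes are not read as a result. The part of blood held in the tissue in the neutrophil values was not tested.

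The 6 named genes, other than those described here, whose levels across the 12 libraries were most like S100a8 were on none of the neutrophil lists. Unnamed loci, mitochondrial genes, and immunoglobulin and T cell receptor segments were also left out of that choice. After these omissions from 14946 genes averaging 1 CPM or more, the 6 highest Pearson correlations of log2 CPM were those of Mtg1 (0.93), Snora75 (0.93), Zmat2 (0.92), Bccip (0.91), Ddx1 (0.91) and Mrpl54 (0.91). With none of the 14946 left out, S100a9 ranked 30th with 0.90, Il1r2 had 0.71, Retnlg 0.62, Csf3r 0.55 and Ltf 0.30. With Ltf, taken as a second reference after the values had been seen because Ngp rested on at most 8 counts per library, Tmc5 (0.93) and Slc9a3r1 (0.92) were among the closest, and S100a9 had 0.12. These points share libraries, depth and group differences, and the values are given as descriptions.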

How the data were processed

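Total RNA from 12 mouse lung samples was sequenced from directional libraries, per the labels' protocols. TopHat and the mouse build mm10 are named per the submitters' processing notes, and the authors deposited raw counts per gene symbol. No counting program, annotation or strand setting is named in the sources used here. Symbols on several lines were summed (35 symbols), and none of the genes described was among them. Counts were tested in edgeR 4.0.16 (R 4.3.3) by the quasi-likelihood F test, with all 12 samples in a fit by group, the default expression filter (16484 genes kept) and TMM scaling. Each SE was obtained from the log2 change and its F statistic. Coordinates and exon lengths come from GENCODE M21, in which no exon of another gene overlaps those of the 8 genes, and promoter sequences from RefSeq (GRCm38.p6), where all 8 matched.

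Genes named were the 9 chosen, members of fixed lists, and the 6 most correlated with S100a8 after the omissions given above. Tmc5 and Slc9a3r1, close to Ltf, were added after the values were seen. Genes and lists were chosen with earlier results of these data known, and 1 gene is left out of the lists and not reported here. The alternatives tried were a replicate block, scaling by median of ratios or by library size only, omission of the expression filter or a minimum of 10 counts, DESeq2 1.42.0, limma-voom (limma 3.58.1), a fit of the groups compared only, removal of Rn45s and haemoglobin genes, and each library left out. Counts of list genes without 8 d replicate 2 or unirradiated replicate 3 were added after the data had been seen. In simulated counts of 15759 genes tested for 8 d against unirradiated lung, the test recovered 17.5% of the genes with a 1.5-fold change, 69.1% at 2-fold and 100% at 4-fold. The simulation held only the libraries of these groups, with changed genes drawn at any level and spread. Rates for the genes described here were not estimated.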

Additional observations from a re-analysis of the deposited data

Results flagged for a closer look

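The effect of irradiation on S100a9 differed between times by a direct test. Its level at 14 d was below that at 8 d by a log2 change of -2.34 (SE 0.57, edgeR quasi-likelihood test, adjusted p = 0.013), lower in 3 of 3 libraries. Leaving out each library in turn gave changes of -2.69 to -1.22 with adjusted p from 0.0067 to 0.058. Groups of 3 are too small for a test of single outlying libraries.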

How the results depend on the processing

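Across 9 alternative settings and the 36 changes of single genes, 310 of 324 values kept their direction and their side of the threshold, 6 became uncalled, 6 became called and 2 turned. S100a9 at 8 d was uncalled with the replicate block (log2 change 1.55), in DESeq2 (1.63), in limma-voom (1.48) and with only the groups compared (1.66). Retnlg turned at 14 d with no filter (-0.007) and S100a8 from 8 d to 11 d by library size alone (-0.069), both uncalled. With only the groups compared 2 genes were called lower from 11 d to 14 d, S100a8 and S100a9, in place of 0. Leaving out 1 library gave 2 to 6 genes called higher at 8 d and at 11 d, 2 to 3 at 14 d, 0 to 2 called lower from 11 d to 14 d and 0 to 2 from 8 d to 14 d. Uncalled changes that turned without 1 library ranged over -0.12 to 1.29 (Retnlg, 11 d), -0.44 to 0.97 (Retnlg, 14 d), -1.05 to 0.056 (S100a9, 14 d), and, from 8 d to 11 d, -0.34 to 1.16 (S100a8), -0.99 to 0.48 (S100a9) and -0.16 to 0.44 (Csf3r). From 11 d to 14 d they ranged over -0.012 to 0.59 (Csf3r) and -0.58 to 0.01 (Ltf), and from 8 d to 14 d over -1.50 to 0.003 (S100a8), -0.39 to 0.17 (Il1r2) and -0.20 to 0.62 (Ltf).

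The mature to granule ratio (log2) moved with its definition. As a mean of log2 levels its difference from controls was 0.29 at 11 d and 0.12 at 14 d in place of -0.331 and -0.688. Without S100a8 and S100a9 it was -0.008 at 14 d, and the step from 11 d to 14 d was 0.28 in place of -0.36. Without Ltf that step was 0.60, and no value against controls could be had because unirradiated replicate 1 had no Ngp or Camp count. Leaving out 1 library gave -0.78 to 0.93 at 8 d, -0.58 to -0.07 at 11 d, -0.99 to -0.36 at 14 d, -1.26 to 0.45 from 8 d to 11 d, -0.66 to -0.03 from 11 d to 14 d and -1.62 to 0.09 from 8 d to 14 d. The causes were not tested. Over all genes DESeq2 called 857 from 8 d to 11 d in place of 353 and 811 from 11 d to 14 d in place of 296, and leaving out 1 library gave 2 to 545 and 13 to 681. With only the groups compared 143 were called from 8 d to 11 d. With library size alone 60.6% of the calls from 8 d to 11 d were higher in place of 81.6%, with a median change of all genes of -0.10. Deviations of same-numbered libraries from their group means correlated by -0.35 to 0.29, with a median of 0.043 beside -0.03 for other pairs. With 3 libraries a group, these values cannot show whether the replicate numbers pair the samples. Depth limits Ngp and Camp, at most 8 counts per library.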
